A study of Mus musculus with 6 samples.

Results

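The genes of cholesterol synthesis and sterol handling were read out in cerebella of newborn mice with and without a Nestin-Cre driven deletion of *Tox3*. The 32 genes were the rows of the deposited count table, which holds 54532 genes, whose names matched a list of the enzymes of sterol synthesis, their transcriptional control, and the proteins that move, store and export sterol. All 32 were found and all 32 passed the filter on low counts. They comprise 19 enzymes of synthesis (8 of the mevalonate and isoprenoid steps and 11 from squalene to the finished sterol), 5 genes of SREBP control, 4 of intracellular transport and storage, and 4 of efflux and its control by LXR.

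RNA from whole cerebella at postnatal day 1 was measured in 6 bulk libraries. The 3 control libraries came from *Tox3* f/f littermates, whose labels name no Cre. The 3 mutant libraries came from Nestin-Cre;*Tox3* f/f animals, so both groups carry the floxed allele and differ in the transgene. Nestin-Cre is active across the neural lineages rather than in granule neuron progenitors (GNPs) alone, and since every mutant and no control carried it, the transgene and the deletion cannot be told apart. Nothing in the labels says whether a library held 1 animal or several, so p-values measure the spread between these libraries.

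Cells make cholesterol from acetyl-CoA through mevalonate, farnesyl pyrophosphate, squalene and lanosterol, and the same early steps supply the lipid anchors of prenylated proteins. The membrane-bound factors encoded by *Srebf1* and *Srebf2* switch these enzymes on when sterol in the endoplasmic reticulum is low, escorted by SCAP and held back by the INSIG proteins, while the LXR receptors turn on export when oxysterols are high. The newborn brain makes its own cholesterol. Sterols also serve Sonic hedgehog signalling to GNPs, because the ligand carries a cholesterol anchor and Smoothened is controlled by sterols.

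The promoter windows of 4 of these genes are shown as examples of promoters of members described below, on the synthesis side (*Hmgcs1*), the control side (*Insig1* and *Srebf2*) and the storage side (*Soat1*). No sequence is printed for *Stard4*, *Npc1* or *Scap*. Each is the 250 bases before the RefSeq start site on GRCm38.p6, 5′ to 3′ on the gene's strand. They lie at chr13:119690101-119690350 on the plus strand for *Hmgcs1*, chr5:28071162-28071411 on the plus strand for *Insig1*, chr15:82147019-82147268 on the plus strand for *Srebf2* and chr1:156474329-156474578 on the minus strand for *Soat1*. Capitals mark the sterol regulatory element TCACNCCAC, the CCAAT box (CCAAT, or ATTGG when it lies on the other strand) and the E-box CACGTG, all searched on both strands.
Hmgcs1: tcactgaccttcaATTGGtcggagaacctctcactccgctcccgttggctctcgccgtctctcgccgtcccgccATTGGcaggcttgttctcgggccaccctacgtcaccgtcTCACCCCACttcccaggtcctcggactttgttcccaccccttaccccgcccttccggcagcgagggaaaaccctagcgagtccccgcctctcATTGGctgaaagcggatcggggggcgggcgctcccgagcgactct
Insig1: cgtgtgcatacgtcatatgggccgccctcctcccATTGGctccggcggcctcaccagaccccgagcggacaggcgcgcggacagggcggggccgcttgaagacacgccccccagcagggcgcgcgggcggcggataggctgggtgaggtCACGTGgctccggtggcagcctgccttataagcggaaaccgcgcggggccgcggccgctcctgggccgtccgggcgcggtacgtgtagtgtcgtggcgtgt
Srebf2: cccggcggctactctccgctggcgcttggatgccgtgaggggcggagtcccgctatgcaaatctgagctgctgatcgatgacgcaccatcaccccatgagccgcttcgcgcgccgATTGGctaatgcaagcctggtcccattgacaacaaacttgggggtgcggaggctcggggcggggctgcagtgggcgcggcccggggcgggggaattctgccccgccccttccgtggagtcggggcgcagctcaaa
Soat1: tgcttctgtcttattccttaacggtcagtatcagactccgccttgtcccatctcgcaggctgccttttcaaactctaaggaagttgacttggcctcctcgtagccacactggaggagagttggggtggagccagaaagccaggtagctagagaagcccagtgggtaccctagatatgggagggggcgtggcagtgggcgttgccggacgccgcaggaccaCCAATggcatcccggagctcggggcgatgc
The capitals in the *Hmgcs1* line include TCACCCCAC, a match to the sterol regulatory element 137 to 129 bases before the start site.

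Of the 32 genes, 26 had at least 1 RefSeq window, here 300 bases long with the 50 bases after the start site, and 35 windows were searched in all. *Stard4*, *Npc1*, *Sqle*, *Fdft1*, *Fdps* and *Abcg1* had no window and were not searched. *Hmgcs1* was the 1 of the 26 genes searched whose window held the exact element, against 1.44% of 12163 tested genes with a window. The CCAAT box, the site of the SREBP partner NF-Y, was found in 21 of 26 genes (80.8%) against 42.4% of tested genes, and the GC box GGGCGG, read by Sp1, in 22 of 26 (84.6%) against 66.2%. The E-box was found in 6 of 26 genes against 11.2% of tested genes. A match describes the letters of the window alone, and the absence of one says only that these letters are not in it.

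The libraries held between 15391854 and 17178478 counts on genes. Of 17505 genes tested, 635 were called lower and 530 higher in the mutant libraries by 2 criteria, a log2 fold change past 0.5 in size and an adjusted p (Benjamini-Hochberg) below 0.01 in edgeR's quasi-likelihood test. The median log2 fold change of all tested genes was -0.01, with quartiles of -0.21 and 0.21. *Tox3* itself stood at 64.3, 63.0 and 64.4 CPM (counts scaled to a common library total) in the control libraries and 55.3, 63.2 and 59.2 in those labelled mutant, with an adjusted p of 0.252 in edgeR's quasi-likelihood test. A count over the whole gene does not show whether the floxed part was lost, so it checks no label. *Atoh1*, the factor that defines GNPs, averaged 31.8 CPM in the controls and 0.362 CPM in the mutants. *Xist* was expressed in control 2, control 3 and mutant 2, at 1983 to 2419 CPM, and the Y-linked *Ddx3y* in control 1, mutant 1 and mutant 3, at 68.6 to 94.5 CPM, so the sexes were not balanced between the groups.

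Most of the sterol genes differed by less than 0.2 on the log2 scale, and 1 gene was called. *Stard4*, which carries cholesterol between membranes, was called lower. No member was called higher. The share called was 1 of 32 (3.13%), beside 3.63% of all tested genes called lower, 3.03% called higher and 6.66% in either direction. At an adjusted p under 0.01 with no fold threshold, 3 members passed (9.38%), *Stard4* lower and *Hmgcs1* and *Npc1* higher, beside 7.24% of all tested genes lower, 6.55% higher and 13.8% in either direction. Both shares were below those of all genes in either direction, but they rest on 1 and 3 members, and the difference was not tested. At an adjusted p under 0.05, 8 of the 32 members passed, beside 25.1% of all tested genes in either direction. The 3 control and 3 mutant values did not overlap in 10 members (31.3%), 4 lower and 6 higher, beside 20.1% of all genes lower, 20.4% higher and 40.5% in either direction.

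The median log2 fold change of the 32 genes was -0.04, with a range from -0.54 to 0.37, and 24 of them differed by less than 0.2. For 27 members the 95% interval of the log2 fold change lay wholly within -0.5 to 0.5. The exceptions were *Stard4*, *Npc1*, *Soat1*, *Tm7sf2* and *Nr1h3*, and only the interval of *Nr1h3* also reached past the threshold on both sides. In bulk RNA, fewer cells of a type and less RNA per cell cannot be told apart, which holds for every value given here.

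**Figure D1:**
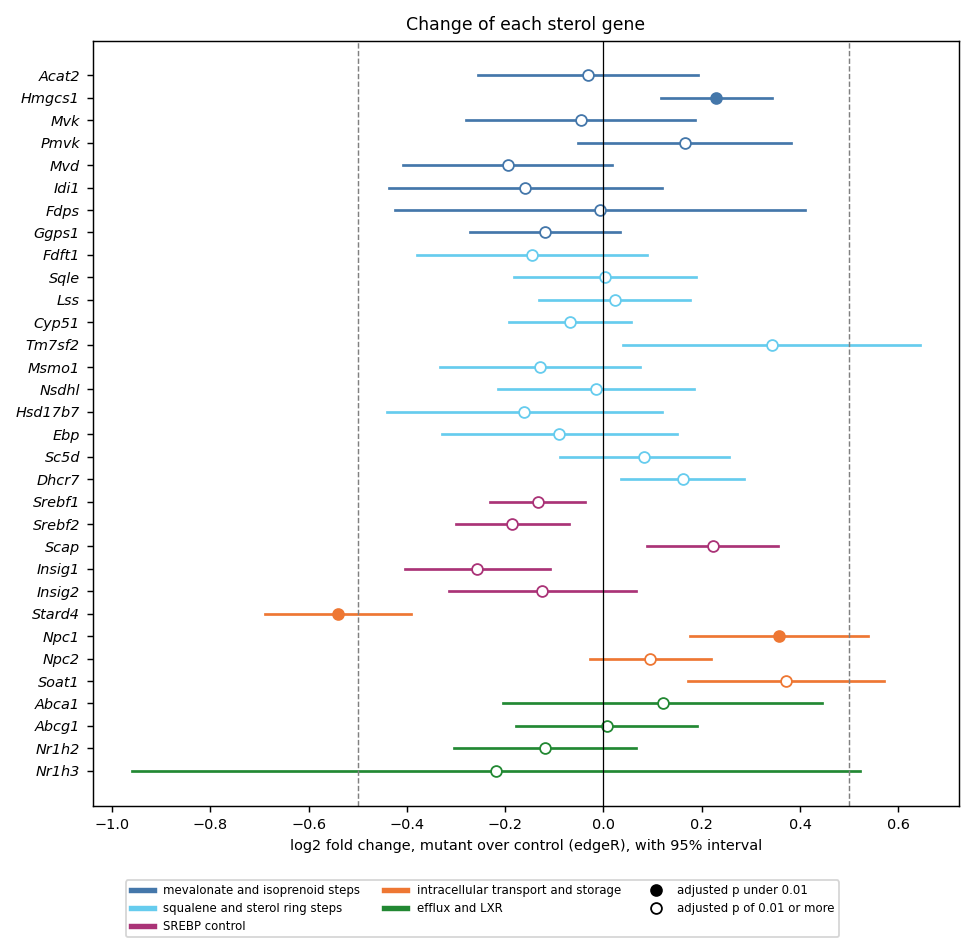
Log2 fold change of each of the 32 sterol genes, mutant over control, on the horizontal axis, with its 95% interval as a line, coloured by role, and filled points for an adjusted p under 0.01 (edgeR, 3 libraries a group). The dashed lines mark -0.5 and 0.5, and of the 3 filled points *Stard4* alone lies beyond one of them, at -0.54.

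Levels within the set differed widely. On the FPKM scale, which is per gene length, *Hmgcs1*, the enzyme that makes HMG-CoA, was the highest in the controls at 56.1 ± 2.12 (SD, n = 3). It was followed by *Srebf2* at 41.6 ± 0.672, *Insig1* at 39.0 ± 1.37 and *Srebf1* at 29.9 ± 0.479. These 4 genes did not overlap with their neighbours in the order. *Acat2*, the thiolase that joins 2 acetyl-CoA units, came next at 25.9 ± 2.57 FPKM and overlapped with the lanosterol demethylase *Cyp51* at 22.7 ± 1.07. At the other end stood *Soat1* at 2.53 ± 0.101, *Fdps* at 0.916 ± 0.0331 and *Nr1h3* at 0.699 ± 0.210 FPKM. In all, 19 of 31 neighbouring pairs overlapped in the control libraries. The order was kept closely in the mutants: the largest move was *Npc1*, which went from rank 26 to rank 20.

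**Figure D2:**
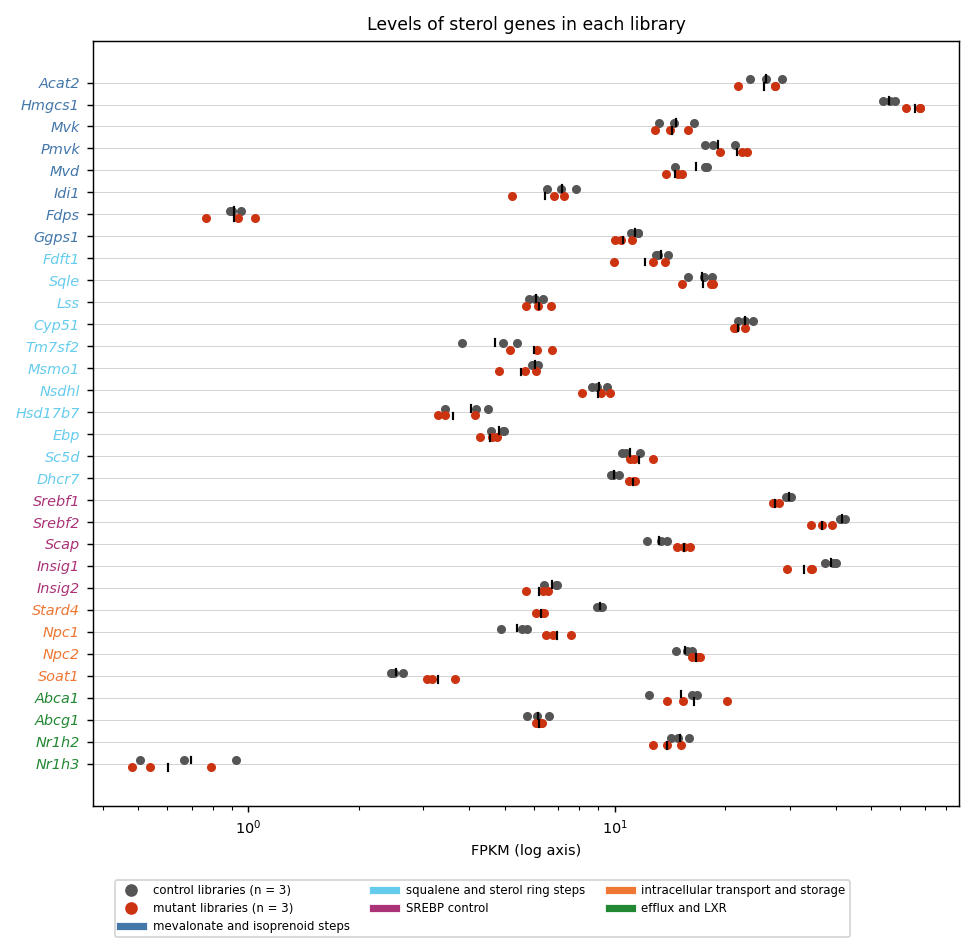
FPKM of each sterol gene in each library on a log axis, control libraries in grey above and mutant libraries in red below, with a black bar at each group mean and gene names coloured by role. *Hmgcs1* lies at the top in both groups (56.1 and 66.1 FPKM), and *Fdps* and *Nr1h3* at the bottom.

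Replicates were close. The coefficient of variation of a member's CPM had a median of 4.96% over the control libraries and 8.11% over the mutant libraries. It was highest in the controls for *Nr1h3*, the LXR alpha gene, at 30.1%, where the counts of 20 to 36 a library allow 19.1% from counting alone. The level of *Fdps*, the farnesyl pyrophosphate synthase, rested on 52 to 76 counts and is uncertain. In the GENCODE M21 annotation, which may not be the one used for counting, 26.7% of its exonic bases are also exons of *Gm43738*. That gene lies on the same strand and had 0 counts. Transcripts of *Fdps* share 75-base stretches with the processed pseudogene *Gm3571*, which had 35 to 49 counts. How reads shared by several genes were treated is not stated. *Acat2* shares 33.9% of such stretches with *Acat3* and *Tcp1*. In GENCODE M21 exons of other genes overlapped 12 of the 32 members, and over 10% of the exonic bases in 5 of them (*Fdps*, *Fdft1*, *Scap*, *Hmgcs1* and *Tm7sf2*). None overlapped *Stard4*, *Soat1* or *Srebf2*.

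Among the 8 genes of the mevalonate and isoprenoid steps, *Hmgcs1* was the 1 that passed an adjusted p of 0.01. It measured 270, 261 and 250 CPM in the control libraries and 312, 290 and 313 CPM in the mutants. Every mutant value was above every control value. The difference was 17.2%, a log2 fold change of 0.23 (SE 0.05, adjusted p = 0.0085 in edgeR's quasi-likelihood test), which is under the fold threshold. Leaving out any library other than mutant 2 took this adjusted p above 0.01, to at most 0.0437, and without mutant 2 it was 0.0026. Part of *Hmgcs1* (12.1% of its exonic bases) overlaps *Gm48342* on the opposite strand.

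The remaining enzymes of this arm did not separate between the groups. *Pmvk*, which adds the next phosphate to phosphomevalonate, had the largest positive value among them, 33.1 ± 3.32 CPM in control and 37.1 ± 3.10 CPM in mutant libraries (log2 fold change 0.17, 95% interval -0.05 to 0.38). *Mvd*, which closes the mevalonate branch by decarboxylation, had the largest negative one, 31.3 ± 3.37 against 27.3 ± 1.29 CPM (-0.20, interval -0.41 to 0.02). Mevalonate kinase (*Mvk*) gave -0.05, the isomerase *Idi1* -0.16, and *Ggps1*, which makes the geranylgeranyl anchor, -0.12. *Acat2* gave -0.03 and *Fdps* -0.01. Over all 6 libraries *Mvk* ran from 34.6 to 44.5 CPM, *Ggps1* from 47.3 to 55.1 CPM and *Acat2* from 55.8 to 73.2 CPM, with control and mutant values interleaved in each. The median log2 fold change of the 8 genes was -0.04.

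The 11 enzymes from squalene onward had a median log2 fold change of -0.01, and none passed an adjusted p of 0.01. *Dhcr7*, the reductase of the last step of one branch and the gene of Smith-Lemli-Opitz syndrome, measured 60.1, 57.2 and 58.1 CPM in control and 65.7, 64.1 and 66.3 CPM in mutant libraries. Its groups did not overlap, and its log2 fold change of 0.16 (SE 0.06) had an adjusted p of 0.0614 in edgeR's quasi-likelihood test. *Tm7sf2*, a sterol C14 reductase, read 27.9, 21.5 and 30.4 CPM against 37.7, 29.2 and 34.3 CPM. The value of mutant 2 fell among those of the controls, and the log2 fold change of 0.34 (SE 0.14) had an adjusted p of 0.0941 by the same edgeR test. In GENCODE M21 exons of *Vps51* overlap 12.1% of its 4403 exonic bases on the same strand, where the deposited gene length was 5593 bases.

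Squalene epoxidase (*Sqle*), a rate-limiting oxygenase of the pathway, read 97.8, 103 and 88.3 CPM in control and 101, 85.2 and 103 CPM in mutant libraries. Its log2 fold change was 0.00, with a 95% interval of -0.18 to 0.19. The cyclase *Lss* gave 0.02 (interval -0.13 to 0.18) and *Cyp51* -0.07 (interval -0.19 to 0.06). Squalene synthase (*Fdft1*) gave -0.15, the C4 methyl oxidase *Msmo1* -0.13, the C4 decarboxylase *Nsdhl* -0.01, the ketoreductase *Hsd17b7* -0.16, the isomerase *Ebp* -0.09 and the desaturase *Sc5d* 0.08. Over the 6 libraries *Lss* ran from 62.4 to 72.3 CPM, *Cyp51* from 93.5 to 106 CPM, *Sc5d* from 51.2 to 62.1 CPM and *Nsdhl* from 23.4 to 27.7 CPM, and the groups overlapped in each. *Ebp* (at most 11.6 CPM) and *Hsd17b7* (16.9 to 23.2 CPM) were the lowest of the ring enzymes in CPM. All of these intervals held 0 and lay within -0.5 to 0.5, so at this depth a change of the size of the threshold was not seen in any of them.

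Taking all 19 enzymes of synthesis, 12 had a negative and 7 a positive log2 fold change, beside 50.9% negative among all tested genes. The median was -0.03, and 18 of the 19 intervals lay within -0.5 to 0.5. Summed over the 19, the level was 269, 257 and 257 FPKM in the control libraries and 280, 249 and 278 FPKM in the mutants. The groups overlapped, with 261 ± 7.24 FPKM (SD, n = 3) in control and 269 ± 17.4 FPKM in mutant libraries. *Hmgcs1* alone averaged 56.1 FPKM in control and 66.1 FPKM in mutant libraries, a larger rise than that of the sum. The sum therefore does not describe the other enzymes. One library set much of the spread. Mutant 2 had the lowest of the 3 mutant values for 14 of the 19 enzymes and the lowest of all 6 libraries for 10 of them. Without it the median of the squalene and sterol ring steps was 0.06. The gap was clearest for *Fdft1*, at 42.5 CPM in mutant 2 against 53.7 to 59.6 CPM in the other libraries, for *Idi1*, at 18.5 against 23.0 to 27.7 CPM, and for *Msmo1*, at 30.0 against 35.0 to 38.3 CPM. Mutant 2 was also the 1 mutant library that expressed *Xist*.

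**Figure D3:**
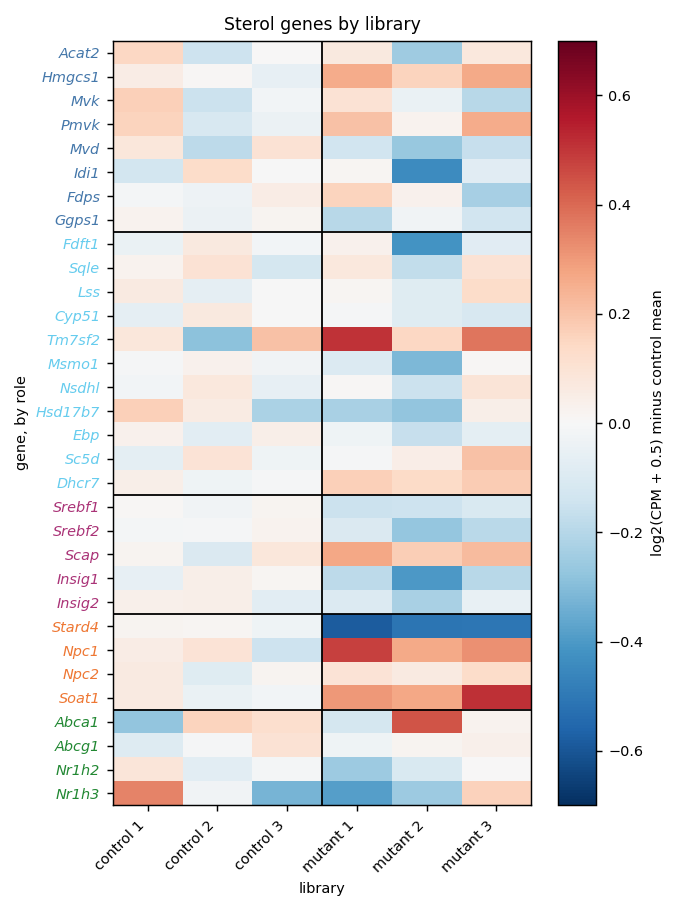
Each row is a sterol gene grouped by role (names coloured by role), each column a library, and the colour gives log2(CPM + 0.5) minus the mean of the 3 control libraries. *Stard4* is lower in all 3 mutant columns, *Npc1*, *Soat1* and *Hmgcs1* are higher in all 3, and the synthesis rows of mutant 2 are bluer than those of mutant 1 and mutant 3.

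Small differences left the control and mutant values without overlap in 4 of the 5 genes of SREBP control, beside 40.5% of all tested genes. None of the 5 was called or passed an adjusted p of 0.01. At an adjusted p under 0.05, 4 of them passed, 3 lower and 1 higher, out of 8 such members among the 32, beside 12.9% of all tested genes lower, 12.2% higher and 25.1% in either direction. *Insig1*, which retains the SREBP complex and is itself an SREBP target, measured 117, 125 and 123 CPM in the control and 107, 92.0 and 106 CPM in the mutant libraries. All 3 mutant values were below the controls, by 16.3% on average (log2 fold change -0.26, SE 0.07, adjusted p = 0.0179 in edgeR's quasi-likelihood test). Its relative *Insig2*, which is not driven by SREBP in the same way, gave -0.12 with an interval of -0.32 to 0.07.

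*Srebf2*, the factor most closely tied to the sterol enzymes, measured 298, 299 and 307 CPM in control and 281, 250 and 265 CPM in mutant libraries. The groups did not overlap, with mutant 2 the lowest (log2 fold change -0.19, SE 0.05, adjusted p = 0.0261 in edgeR's quasi-likelihood test). *Srebf1*, which favours fatty acid genes, read 171, 167 and 172 CPM against 153, 154 and 158 CPM. Its replicates were the tightest of these genes in the mutants, and the difference was -0.13 (SE 0.04, adjusted p = 0.0486 by the same edgeR test). *Scap*, the escort of both factors, went the other way, with 100, 91.9 and 104 CPM against 119, 111 and 115 CPM. Its groups did not overlap either (0.22, SE 0.06, adjusted p = 0.0218 by the same edgeR test), and 13.2% of its exonic bases overlap *5830462I19Rik*.

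These 4 genes did not stay under 0.05 in every refit. Leaving out a library also leaves fewer libraries to test with, so a higher p does not show that the library left out drove the difference. With 1 library left out at a time, the adjusted p of the edgeR test ran from 0.0268 to 0.0614 for *Insig1*, from 0.0228 to 0.0836 for *Srebf2*, from 0.0134 to 0.0894 for *Scap* and from 0.0648 to 0.161 for *Srebf1*. It went above 0.05 for *Insig1* without control 2 (0.0614) or control 3 (0.0559). For *Srebf2* it stayed under 0.05 without mutant 1 (0.0228) and went above it in the other 5 cases. For *Scap* it stayed under 0.05 without control 1 (0.0464), control 3 (0.0213) or mutant 2 (0.0134), and for *Srebf1* it went above 0.05 in all 6 cases. With all libraries kept, *Srebf1* was at 0.05 or above in 7 of 9 other fits, for example at 0.129 with DESeq2, and *Insig1*, *Srebf2* and *Scap* each in 2 of 9, the limma fits on FPKM. The direction was kept in every one of these fits. On the FPKM scale *Insig1* was 5.42 to 6.15 times the level of *Insig2* in the controls and 5.13 to 5.44 times in the mutants, ranges that overlap, and *Srebf2* was 1.37 to 1.41 times *Srebf1* in the controls and 1.27 to 1.44 times in the mutants.

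The 4 genes of intracellular transport and storage held both the lowest and the highest log2 fold changes of the set, with a median log2 fold change of 0.23. *Stard4* (ENSMUSG00000024378, chromosome 18), a soluble sterol carrier and an SREBP target, measured 51.9, 51.8 and 50.2 CPM in control and 34.1, 35.8 and 35.9 CPM in mutant libraries. The replicates of each group lay within 2 CPM of each other, and the groups did not overlap. The level fell by 31.2% (log2 fold change -0.54, SE 0.07, 95% interval -0.69 to -0.39, adjusted p = 0.0004 in edgeR's quasi-likelihood test). It ranked 501 by p among the 17505 genes. Leaving out 1 library at a time gave -0.55 to -0.51, with an adjusted p of at most 0.0027. The interval reaches inside the threshold, and *Stard4* was not called when the test was made against a log2 fold change of 0.5 itself, nor on log2(FPKM + 1), where the value was -0.47.

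*Npc1* (ENSMUSG00000024413, chromosome 18), the membrane protein that lets cholesterol leave lysosomes, measured 60.5, 62.4 and 52.8 CPM in control and 81.6, 70.3 and 73.0 CPM in mutant libraries. Every mutant value was above every control value, with mutant 1 the highest. The difference was 28.1% (log2 fold change 0.36, SE 0.08, adjusted p = 0.0098 in edgeR's quasi-likelihood test). Leaving out any library other than mutant 2 took the adjusted p above 0.01, to at most 0.0439, and without mutant 2 it was 0.0057. *Npc2*, the soluble partner that hands cholesterol to NPC1, gave 0.10 (interval -0.03 to 0.22), with 88.9, 80.4 and 86.4 CPM against 91.1, 89.1 and 93.0 CPM. Its groups did not overlap, though by less than 1 CPM.

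*Soat1*, which esterifies cholesterol for storage in droplets, measured 26.2, 24.2 and 24.7 CPM in control and 31.0, 30.3 and 35.9 CPM in mutant libraries. All 3 mutant values were above the controls and mutant 3 was the highest. The difference was 29.3% (log2 fold change 0.37, SE 0.09, 95% interval 0.17 to 0.57), and its adjusted p of 0.0135 in edgeR's quasi-likelihood test missed 0.01. Its paralogue *Soat2* was too low to be tested.

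The efflux genes did not separate. *Abca1*, which exports cholesterol to apolipoproteins, read 129, 175 and 170 CPM in control and 144, 212 and 159 CPM in mutant libraries. It varied more between libraries of a group than any other member above 10 FPKM in the controls, with a log2 fold change of 0.12 (95% interval -0.20 to 0.44). In both groups the libraries that expressed *Xist* read higher than those that expressed *Ddx3y*. Between mutant and control libraries the log2 ratio was 0.30 among the 3 that expressed *Xist* and 0.23 among the 3 that expressed *Ddx3y*. This split was not particular to *Abca1*. Over 16905 genes outside the sex chromosomes, values relative to the group mean were correlated between control and mutant libraries. Pairs that both expressed *Xist* or both *Ddx3y* gave 0.151 to 0.192, and the other pairs -0.304 to -0.0773. Sex and another library difference that falls the same way cannot be told apart. The exporter *Abcg1* gave 0.01, the LXR beta gene *Nr1h2* -0.12 and the LXR alpha gene *Nr1h3* -0.22, with an interval of -0.96 to 0.52 that is too wide to place it. *Abcg1* ran from 23.7 to 27.1 CPM, *Nr1h2* from 42.6 to 54.0 CPM and *Nr1h3* from 1.21 to 2.34 CPM, and the groups overlapped in all 3.

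**Figure D4:**
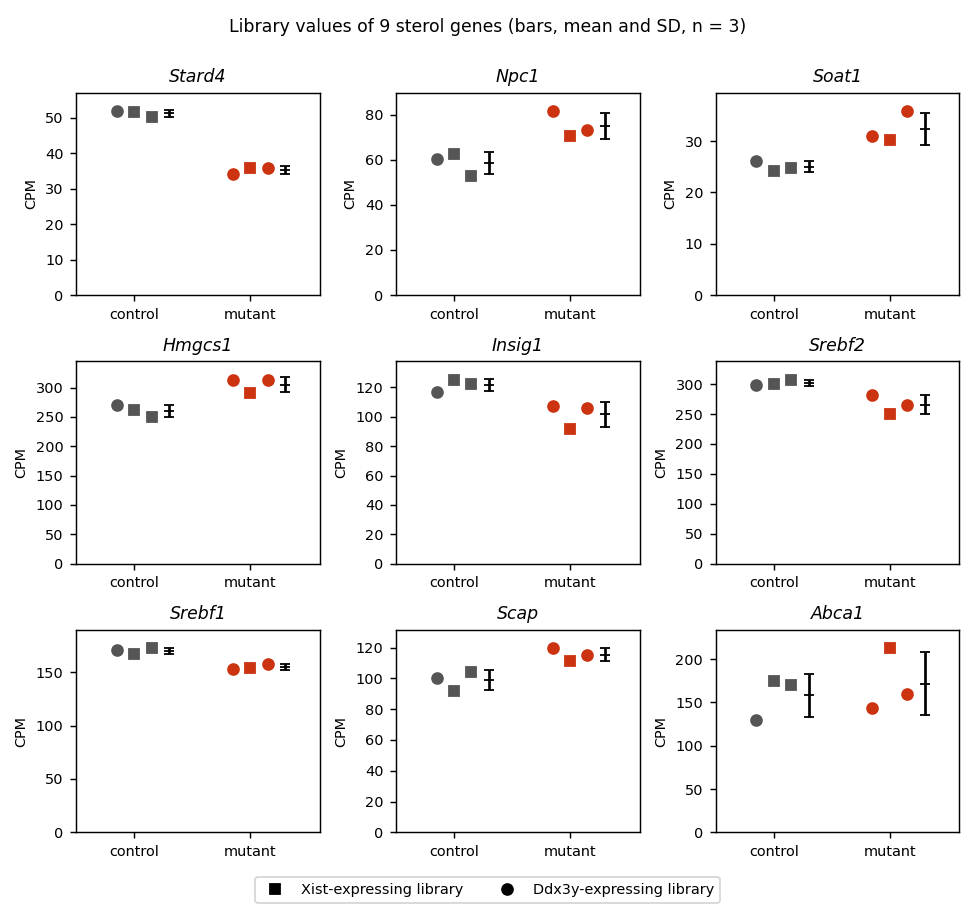
CPM of 9 sterol genes in each control (grey) and mutant (red) library, on axes that start at 0, with squares for libraries that express *Xist*, circles for those that express *Ddx3y*, and a bar for the mean and SD of 3 libraries beside the points. *Stard4* drops from about 51.3 to 35.3 CPM with no overlap, whereas *Abca1* overlaps between the groups and splits by the shape of the points.

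When the summed level of Y-chromosome genes entered the edgeR fit as a covariate, 7 members passed an adjusted p of 0.01, beside 19.0% of all tested genes in either direction. *Stard4*, *Insig1* (-0.28) and *Srebf2* (-0.20) were lower, and *Hmgcs1* (0.20), *Npc1* (0.33), *Soat1* (0.33) and *Abca1* (0.25) were higher. *Abca1* then had an adjusted p of 0.0016 in edgeR's quasi-likelihood test, against 0.589 without the covariate. *Stard4* was as far apart within each sex as across them, with a log2 ratio of -0.51 among the libraries that expressed *Xist* and -0.57 among those that expressed *Ddx3y*. The ratio of *Insig1* was -0.43 and -0.13 in the same order, that of *Npc1* 0.29 and 0.35, and that of *Soat1* 0.31 and 0.35. Each of these ratios rests on 3 libraries and has no test, and sex cannot be told apart from the wider split of the libraries given above.

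Marker genes of several cell types moved between the groups beside these values. All 5 markers of GNPs were called lower, and their summed level was 818 to 888 CPM in control and 297 to 321 CPM in mutant libraries. Of 8 oligodendrocyte lineage markers 7 were called higher, summing to 531 to 576 CPM against 752 to 802 CPM, while *Pdgfra*, the progenitor marker of that list, was at -0.45 on the log2 scale (named after its value was seen). Of 8 astroglial markers 4 were called higher, summing to 3434 to 3486 CPM against 4567 to 4928 CPM. Of 6 Purkinje cell markers 4 were called higher (889 to 934 against 1332 to 1527 CPM), and 1 of 7 microglial markers (98.2 to 105 against 130 to 143 CPM). Of 6 granule neuron markers 5 were called lower (2912 to 3043 against 2016 to 2110 CPM), and 3 of 6 meningeal markers were called higher (677 to 710 against 829 to 1012 CPM). No endothelial, choroid plexus or erythrocyte marker was called. Choroid plexus markers summed to 74.2 to 141 CPM in the controls and to 193, 11.5 and 749 CPM in mutant 1, 2 and 3. None of the 61 markers was at 0 in any library. The part of these cell types in the values of *Stard4*, *Npc1*, *Soat1*, *Hmgcs1* and the SREBP genes was not tested.

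In the same libraries, all 9 genes of the hedgehog readout had a negative log2 fold change, with 7 called lower and a median of -1.05, among the called genes *Ccnd1* (-1.05), *Boc* (-1.22) and *Sfrp1* (-1.31). The smallest change among the called genes was that of *Gli1* (-0.53), named after its value was seen, so the median does not describe each gene. The 2 not called, also named after their values were seen, were the hedgehog receptor gene *Ptch1* and the hedgehog-binding *Hhip*. *Ptch1* gave -0.33, under the fold threshold, with an adjusted p of 0.0007 in edgeR's quasi-likelihood test. *Hhip* gave -0.02 with an adjusted p of 0.963 by the same edgeR test. The difference between this list and the sterol genes was not tested. All 8 proliferation genes were lower, 7 of them called, with a median of -0.75. *Gli2* stands in both this readout and the GNP marker list.

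**Figure D5:**
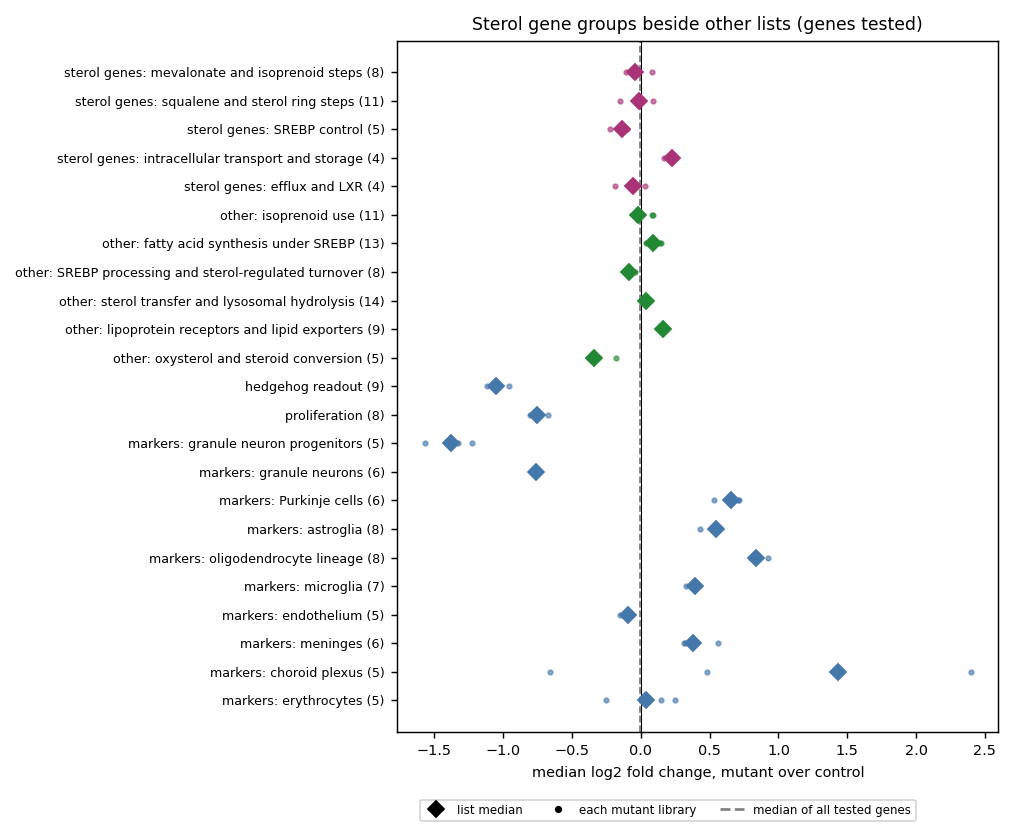
Median log2 fold change, mutant over control, of each gene list (diamond) and of each mutant library against the control mean (dots), with the number of genes tested in brackets and a dashed line at the median of all tested genes (-0.01). The diamonds of the sterol gene groups lie between -0.13 and 0.23, and that of the hedgehog readout at -1.05.

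The neighbouring pathways were read from 6 further lists of 63 genes, of which 60 were tested. Over these, 3 were called lower, none higher, 25 had a negative and 35 a positive log2 fold change. The 3 calls are 5.0% of the 60, beside the 6.66% of all tested genes called in either direction. At an adjusted p under 0.01, 4 were lower and 7 higher, 18.3% of the 60 beside 13.8% of all tested genes. Of the 11 genes that use isoprenoids, 2 were called lower, *Icmt* (-0.56, SE 0.08), which methylates prenylated proteins, and *Pdss1* (-0.56, SE 0.11), which builds the coenzyme Q tail. Of the 13 genes of fatty acid synthesis under SREBP, none was called, and 3 passed an adjusted p of 0.01, all higher. These were *Scd2* (0.44), a brain stearoyl-CoA desaturase, *Gpam* (0.30), which starts glycerolipid synthesis, and *Fads2* (0.27), a desaturase named after its value was seen. Of the 8 genes of SREBP processing and sterol-regulated turnover, *Mbtps2* (-0.38), the protease that releases SREBP from the membrane, was the 1 that passed, and *Erlin2*, a membrane protein of the endoplasmic reticulum, came next (0.20, adjusted p = 0.0102 in edgeR's quasi-likelihood test).

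Of the 14 genes of sterol transfer and lysosomal hydrolysis, *Osbpl1a* (0.33), an oxysterol-binding protein, and *Nceh1* (0.38), a cholesteryl ester hydrolase, passed an adjusted p of 0.01, both higher. Of the 9 lipoprotein receptors and lipid exporters, *Lrp1* (0.41), an endocytic receptor, and *Abcg4* (0.42), a sterol exporter, passed it, both higher. In the list of oxysterol and steroid conversion 5 of 8 genes were tested, and *Cyp11a1*, which begins steroid synthesis, was called lower from a low level (2.12 against 0.550 CPM, log2 fold change -1.92). None of the 3 genes left out by the filter (*Ch25h*, *Hsd3b7* and *Soat2*) averaged above 0.424 CPM in either group.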

How the data were processed

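RNA-seq of 6 cerebella libraries at postnatal day 1 was used, grouped by the labels. The authors deposited raw counts per gene, made with HISAT2 2.0.5 on mm10 and featureCounts 1.5.0-p3, and FPKM values computed from counts and gene length. The annotation release, strand and multi-mapping settings are not stated, so overlapping genes and close copies may share reads.

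Counts were fitted over all 6 libraries with edgeR 4.0.16 (quasi-likelihood, TMM, filterByExpr), with Benjamini-Hochberg adjustment over 17505 genes. Calls needed a log2 fold change past 0.5 in size and an adjusted p below 0.01. CPM used TMM-normalized totals, and intervals are 95%. With 3 libraries a group, an exact permutation cannot give a two-sided p under 0.1. The members, lists and tests were chosen with earlier results of these data known. Named genes were all members, *Tox3*, *Atoh1*, *Xist* and *Ddx3y*, and from other lists at most the 4 called genes with the smallest p, or the 2 with the smallest p where none was called.

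Alternatives were DESeq2 1.42.0, other scalings and filters, the replicate number as a block, a Y-gene covariate, limma 3.58.1 on FPKM, other thresholds and each library left out. Promoter sequences came from RefSeq (GRCm38.p6).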

Additional observations from a re-analysis of the deposited data

How the results depend on the processing

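*Stard4* kept its direction and an adjusted p under 0.01 in all 15 refits and was called in 14 of them, the test against the fold threshold not being counted among these. *Npc1* and *Hmgcs1* passed 0.01 in 8 of 15, and *Soat1* in 4 of 15. Low counts, under 80 a library, limit *Fdps* and *Nr1h3*, and why these counts are low was not tested. The causes of the differences between settings were not tested.

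With no filter on low counts, 2 members were lower and 5 higher at an adjusted p under 0.01, beside 6.17% and 5.23% of the 32263 genes in that fit. Those genes include low-count ones that the main filter removed, whereas all 32 members passed it, so the shares are not like for like. With the Y-gene covariate 3 members were lower and 4 higher at an adjusted p under 0.01, beside 19.0% of all tested genes in either direction. At an adjusted p under 0.05 the counts were 4 and 4, and 838 genes were called higher. On log2(FPKM + 1), limma called 370 genes lower and 252 higher, 0 members lower, had 0 members higher at 0.01, and gave the transport and storage genes a median of 0.19. On log2(FPKM + 0.1) it called 417 and 300 genes, with 0 members higher at 0.01. Testing against the fold threshold itself called 145 genes lower and 30 higher and 0 members lower. Leaving out 1 library at a time gave 0 to 3 members higher at 0.01, 349 (without mutant 3) to 569 genes called higher, and transport and storage medians of 0.19 to 0.27.

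Genes with log2 fold changes near 0 changed sign. With library totals alone, *Fdps* was 0.011 and *Nsdhl* 0.0039. With the Y-gene covariate, *Fdps* was 0.0064, *Sqle* -0.0449 and *Lss* -0.0177. Leaving out 1 library at a time, the log2 fold change ranged over -0.101 to 0.0782 for *Acat2*, -0.125 to 0.0428 for *Mvk*, -0.0507 to 0.233 for *Abca1*, -0.0389 to 0.0584 for *Abcg1*, -0.458 to 0.0321 for *Nr1h3*, -0.0329 to 0.0836 for *Lss*, -0.0693 to 0.0598 for *Nsdhl*, -0.109 to 0.106 for *Fdps* and -0.0572 to 0.0953 for *Sqle*.

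Samples with replicate number 1, 2 and 3 correlated at 0.168, 0.192 and -0.0991. Those numbered 1 and 2 matched in the expression of *Xist* or *Ddx3y*, and those numbered 3 did not. The correlations follow that split, so they cannot decide whether the numbers pair the samples. With the replicate number as a block, 696 genes were called lower and 561 higher, 1 member was called, and 1 member was lower and 3 higher at an adjusted p under 0.01, beside 9.38% and 7.73% of all genes in that fit.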
